A study of Mus musculus with 24 samples.

Results

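Embryoid bodies, floating aggregates of differentiating embryonic stem cells, were followed from day 4 to day 6 while under FK506 and cyclosporin A. The comparison took the 3 arrays of drug-treated embryoid bodies at day 6 against the 3 arrays of drug-treated embryoid bodies at day 4, which is 6 of the 24 arrays of the series, and covered 19938 genes. The cells were of the mouse embryonic stem cell line 46C, so all values come from 1 line. Both drugs were given together in each treated culture, FK506 at 100 ng/ml and cyclosporin A at 1 ug/ml, from day 3 to day 8, so the day 4 cultures had been exposed for 1 day and the day 6 cultures for 3 days. Culture on gelatin with LIF began on day 1, the cells were moved to low attachment dishes on day 3, and the aggregates were plated on day 7, after both time points. The untreated embryoid bodies of days 4 and 6, also 3 arrays each and grown the same way without the drugs, served as the reference course. The labels name no vehicle for the untreated cultures and no group given 1 drug alone. The replicates are labelled as biological replicates, and values are log2 microarray signals.

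In the embryo, cells of the epiblast pass through the primitive streak under Nodal, Wnt and FGF signals and leave it as mesoderm or endoderm, while BMP signals favour the posterior and lateral mesoderm. Embryoid bodies in serum run through a similar order of gene expression without the embryo's layout. FK506 and cyclosporin A each bind an immunophilin, and these complexes block calcineurin, the calcium-dependent phosphatase that moves NFAT transcription factors into the nucleus.

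The array medians of the series lay between 7.80 and 7.88, and with 3 arrays a group the precision is limited. No detection calls were used here, so a low signal was not shown to lie above background. The first treated day 4 array stood apart from the others of its group. Its values lay a median of 0.10 above the mean of the other two arrays, and its deviations from the group mean had an SD of 0.13 against 0.09 and 0.09. The labelled cell type was borne out by its markers: 9 of 9 epiblast and stem cell markers averaged between 11.06 and 13.57 at day 4. Markers of feeder fibroblasts (7 of 7 measured) averaged between 7.60 and 7.79 per array at day 4 and between 7.49 and 7.56 at day 6, where 1 of them fell and 6 did not pass. In such bulk samples a change in the share of cells of a type and a change in RNA per cell cannot be told apart.

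Between days 4 and 6 under the drugs, 18 of 20 genes of the primitive streak, 13 of 18 of the lateral mesoderm and 9 of 16 of the definitive endoderm rose, and 19 of 27 naive pluripotency genes fell. By limma's moderated test at an adjusted p of 0.05, 3811 genes (19.1% of those tested) were higher at day 6 and 5001 (25.1%) were lower. Without the first treated day 4 array these counts were 3996 and 3545. The list counts here and below stand against the 19.1% higher and 25.1% lower over all genes. The lists were written with earlier results of these data known. Higher genes made up 43.2% of the calls, against 33.3% after quantile normalization and 33.5% when array medians were set equal. Among genes above the 40th percentile of mean level the balance was the other way, with 61.1% of the calls higher. Rises were larger than falls: 330 genes (1.66%) rose at least 2-fold and 125 (0.627%) fell at least 2-fold. All 3 day 6 arrays lay above all 3 day 4 arrays for 21.4% of genes and below them for 31.2%. Many of the small falls were of dim genes, since genes under the 40th percentile of mean level had a median difference of -0.17 and those above it one of 0.04.

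The largest rise was that of Mixl1, a homeobox gene of the primitive streak. Its signals were 8.73, 8.08 and 8.35 on the day 4 arrays and 12.48, 12.37 and 12.32 on the day 6 arrays. The difference was 4.01 (SE 0.38, adjusted p = 6.89e-08), or 16.1-fold. Kdr, the VEGF receptor that marks mesoderm able to form blood vessels and blood, read 6.95, 6.65 and 6.86 on the day 4 arrays and 11.14, 10.26 and 10.69 on the day 6 arrays. Its difference was 3.88 (SE 0.28, adjusted p = 2.06e-09), or 14.7-fold, and the second day 6 array was the lowest of its group. Aplnr, the apelin receptor, read 7.15, 7.04 and 7.41 on the day 4 arrays and 10.68, 10.92 and 10.95 on the day 6 arrays, which is 12.5-fold higher with SE 0.19 on the log2 scale. Asb4, a SOCS box protein gene, rose by 3.96 and Capn6, a calpain family gene, by 3.70. Cyp26a1, whose enzyme breaks down retinoic acid, rose by 3.59. The other 9 of the 15 largest rises were Nrp1 (3.52), Frzb (3.52), Fgf10 (3.42), Pdgfra (3.42), Tbx20 (3.31), Pcdh7 (3.28), Lhx1 (3.28), Gata6 (3.25) and Mesp1 (3.19). They hold receptors and co-receptors of growth factors, a protocadherin and transcription factors of mesoderm and endoderm.

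The largest named falls were smaller. Olfr307, annotated as an olfactory receptor gene, read 8.34, 8.25 and 8.19 on the day 4 arrays and 5.96, 5.75 and 5.67 on the day 6 arrays, a difference of -2.47 (SE 0.13, adjusted p = 6.73e-11). Lefty1, the secreted inhibitor of Nodal, read 10.81, 10.78 and 10.87 on the day 4 arrays and 8.53, 8.80 and 8.38 on the day 6 arrays, a difference of -2.25 (SE 0.22, adjusted p = 7.98e-08). In both genes the 3 arrays of each day lay close together. Arrays that do not overlap between the days were a condition for naming the 15 largest rises and falls, so this adds no separate support. Mcf2 differed by -2.18, Hsd17b14, a steroid dehydrogenase gene, by -2.04 and Nr0b1, which encodes the stem cell nuclear receptor Dax1, by -1.89. The remaining 10 of the 15 lay between -1.93 and -1.53: Platr8, Tmem54, Accsl, Nexmif, Morc1, Bnc2, Dppa2, Nqo1, Zfp640 and the germline histone gene H2ac1.

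**Figure D1:**
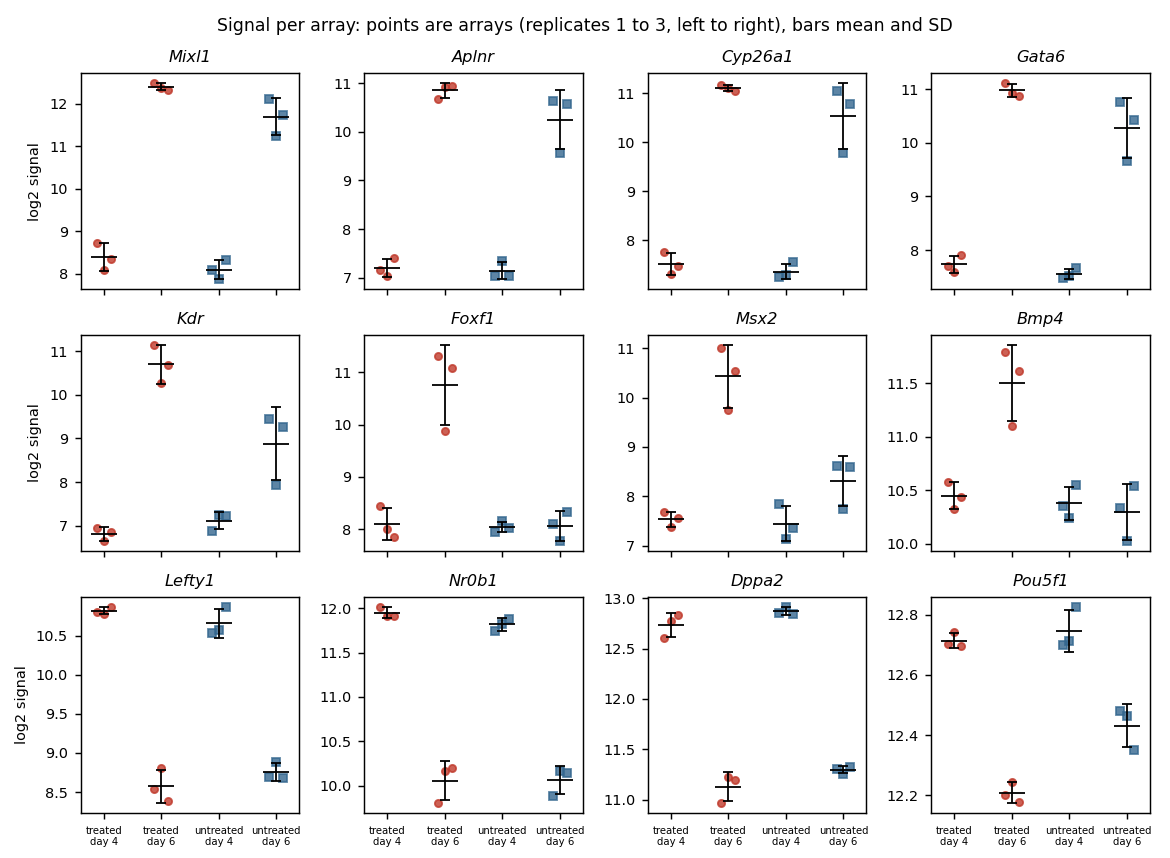
Log2 signal on each array for 12 genes in treated (red circles) and untreated (blue squares) embryoid bodies at days 4 and 6. Points are arrays, the horizontal bar is the mean and the whiskers are the SD of 3 arrays, and each panel has its own axis. Mixl1 rose from 8.08 to 8.73 at day 4 to 12.32 to 12.48 at day 6 under the drugs, while Foxf1, Msx2 and Bmp4 stood higher on the treated than on the untreated day 6 arrays.

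Of the 20 primitive streak and mesendoderm genes measured, 18 rose and 1 fell, with a median difference of 1.35 against -0.07 over all genes. Besides Mixl1 and Mesp1, a mesoderm and heart precursor factor, the T-box gene Eomes rose by 1.43 from an already high 10.64. Gsc, a gene of the anterior streak and organizer, rose by 1.09 (SE 0.19, adjusted p = 0.00011), and Tbx6, which directs paraxial mesoderm, by 1.49. Cdx1, a posterior homeobox gene, was the 1 that fell (-0.39), and Nkx1-2 (0.16, adjusted p = 0.325) did not pass. The Brachyury gene is not analysed here.

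Ligand and receptor genes of the Nodal pathway changed mostly in opposite directions, and the inhibitors went both ways. Of 7 ligands, processing enzymes and co-receptors, 5 fell and 1 rose. Nodal itself read 10.71, 10.82 and 10.69 on the day 4 arrays and between 9.97 and 10.50 on those of day 6. Its days did not overlap, and the difference was -0.58 (SE 0.17, adjusted p = 0.0104), which did not pass without the first or the third day 6 array (adjusted p up to 0.0538). Gdf3, a related ligand, differed by -1.32, while the protease gene Furin, whose product matures Nodal, rose by 0.68. Of 8 receptors, Smads and cofactors, 7 rose and 1 fell, or 5 and 1 after quantile normalization. Among them the signal transducer Smad3 rose by 0.77, the receptor Acvr2a by 0.79 and the Smad partner Foxh1 by 0.56, and Acvr1c fell (-0.38). The inhibitors split: Lefty1 and Lefty2 (-1.46) and the inhibitory Smad7 (-0.46) fell, while the secreted antagonists Cer1 (2.18) and Fst (1.13) rose. All 6 genes listed under targets rose (Gsc, Eomes, Mixl1, Lhx1, Sox17 and Foxa2), with a median of 1.42. Lefty1, Lefty2 and Nodal, which fell, were listed under other roles and are not among these targets. In untreated embryoid bodies 5 of the 7 ligands, processing enzymes and co-receptors fell and 1 rose. Of the 8 receptors, Smads and cofactors 5 rose and 1 fell there, and all 6 targets rose. The difference between the courses passed limma's test for 0 of the 28 genes.

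Among 20 Wnt ligands and R-spondins, 7 rose and 7 fell, and the rises were the larger. Wnt5a, a ligand of the non-canonical branch, read 7.18, 7.04 and 7.12 on the day 4 arrays and 10.10, 9.33 and 9.70 on the day 6 arrays, so no day 6 value overlapped the day 4 values, and the difference was 2.59 (SE 0.24, adjusted p = 5.95e-08). Rspo3, which boosts Wnt reception, rose by 2.55 and Wnt3, the ligand that starts the streak, by 1.93. Wnt8a, also of the streak, did not pass (0.00, SE 0.28, adjusted p = 0.993), and its sign turned under both other scalings. Without the first treated day 4 array 4 ligands fell. Of 16 receptors, 8 rose and 3 fell, or 4 and 3 after quantile normalization. The R-spondin receptor Lgr5 rose by 2.09, Lgr4 fell (-0.61), and the Frizzled genes that passed moved by between -0.38 (Fzd9) and 0.48 (Fzd1). Of 13 secreted antagonists, Frzb, Cer1 and Dkk1 (2.82) rose and 4 fell, of which 1 remained lower without the first treated day 4 array. Notum, which inactivates Wnt proteins, fell the most (-1.09).

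Of 14 Wnt response genes, 9 rose and 1 fell. Axin2, a feedback inhibitor used as a readout of the pathway, read 8.79, 8.64 and 8.72 on the day 4 arrays and 9.66, 9.71 and 9.63 on the day 6 arrays, a difference of 0.95 (SE 0.11, adjusted p = 8.41e-07). Apcdd1, a membrane inhibitor, rose by 1.79, Sp5, a streak transcription factor, by 1.69 and Cdx2, a posterior homeobox gene, by 1.05. In untreated embryoid bodies 4 of the same 14 rose and 3 fell, and Cdx2 stood at -0.09 and Apcdd1 at 0.36. The difference between the courses did not pass for either (adjusted p = 0.166 and 0.0688). Among 8 FGF ligands, Fgf10, Fgf3 (1.15) and the streak ligand Fgf8 (0.76) rose, and Fgf4, a ligand of pluripotent cells (-0.92), Fgf17 (-0.55) and Fgf18 (-0.47) fell. Fgf17 did not pass without the first day 4 array or the first day 6 array (adjusted p up to 0.0835). Of 13 ERK response genes, 2 rose and 3 fell, the latter being Spry2 (-0.51), Spry4 (-0.86) and Etv5 (-0.69). Neither share was above that over all genes (19.1% higher, 25.1% lower).

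Of 46 BMP pathway genes 26 rose and 7 fell, with rises among the ligands, the receptors and Smads, the antagonists and the targets. Of 9 ligands, 4 rose, each at least 2-fold, and 2 fell. Bmp4, which drives posterior mesoderm, read 10.58, 10.33 and 10.44 on the day 4 arrays and 11.79, 11.10 and 11.61 on the day 6 arrays. The days did not overlap, and the difference was 1.05 (SE 0.16, adjusted p = 2e-05), or 2.07-fold. Bmp2 rose by 2.30, Bmp5 by 2.27 and Bmp7 by 1.82, while Bmp8b (-0.88) and Bmp8a (-0.31) fell, the latter not passing without the second day 4 array or the first or the second day 6 array (adjusted p up to 0.108). Of 9 receptors and Smads, 6 rose and 2 fell. The receptor genes Bmpr1a (0.33), Bmpr2 (0.54) and Acvr1 (0.34, adjusted p = 0.0872 after quantile normalization) had the smaller rises, and the signal transducer Smad1 rose the most (1.38). Of 11 antagonists and modulators, 5 rose, led by Bmper (1.74) and Bambi (1.20), and Grem1 fell (-0.61). The antagonists Nog (-0.09, adjusted p = 0.451) and Chrd (0.09, adjusted p = 0.581) did not pass.

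Of 19 BMP target genes, 12 rose and 2 fell, with a median of 0.61 under the drugs against 0.12 in the untreated course, where 4 rose and 4 fell. The difference between the courses passed limma's test for 2 of the 19. Msx2, a homeobox gene, read 7.67, 7.37 and 7.56 on the day 4 arrays and 11.01, 9.74 and 10.54 on the day 6 arrays, a difference of 2.89 (SE 0.27, adjusted p = 5.87e-08). The second day 6 array was the lowest of the 3 and still lay above all day 4 arrays. Id1, which blocks bHLH factors, rose by 1.17 (SE 0.17, adjusted p = 1.37e-05), Id3 by 0.61, the inhibitory Smad6 by 1.53, Msx1 by 1.52 and Gata3 by 1.67. Id2 (-0.23, adjusted p = 0.161) did not pass, and Smad7 and Atoh8 (-0.40) fell. In 17 of the 19 the second treated day 6 array had the lowest value of its group, against 60.3% of the 330 genes that rose at least 2-fold and 25.5% of all genes. In 14 of the 19 the second untreated day 6 array was the lowest of the untreated group. Without the second treated day 6 array 12 of the 19 rose and 2 fell, with a median of 0.87.

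**Figure D2:**
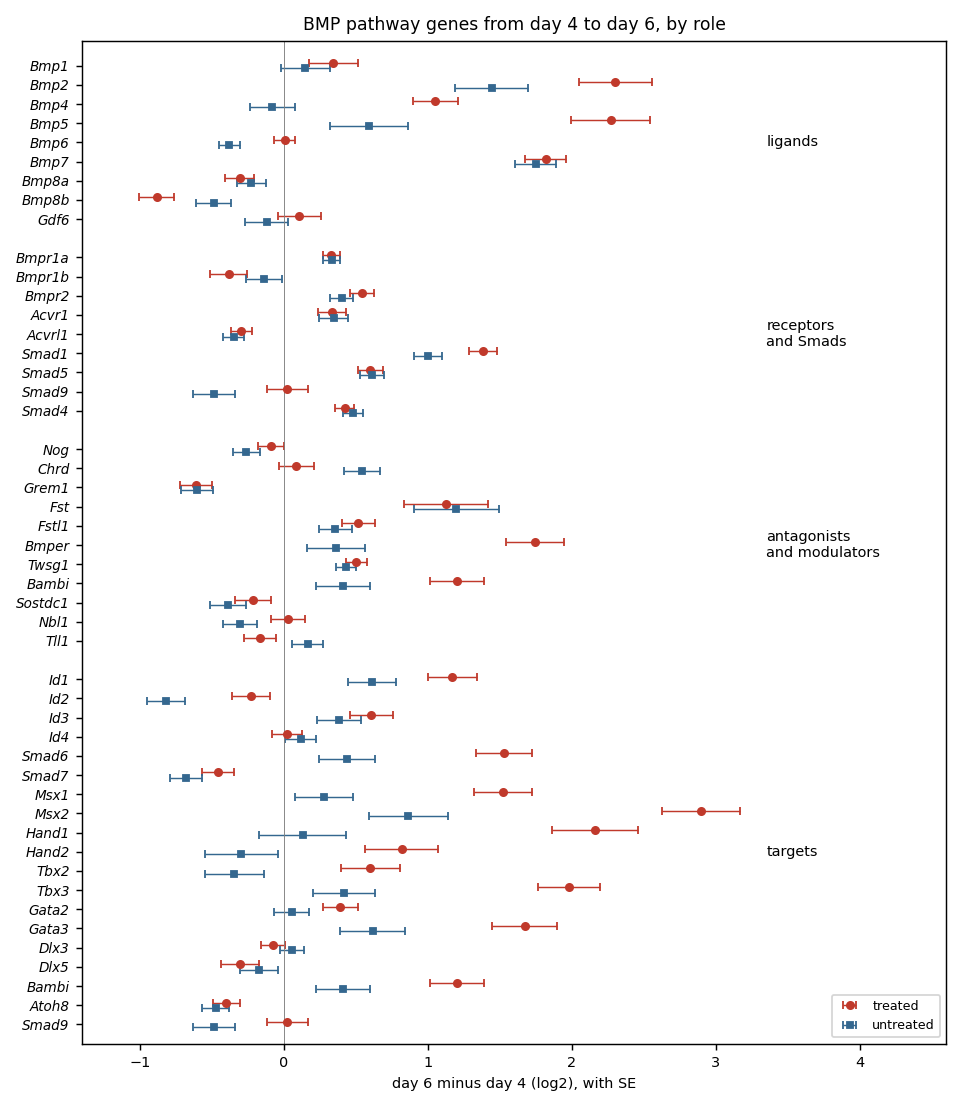
Day 6 minus day 4 difference on the log2 scale, with its SE, for the BMP pathway genes measured, grouped by role, in treated (red circles) and untreated (blue squares) embryoid bodies. A pair of genes is listed under 2 roles. Msx2 (2.89 treated, 0.86 untreated), Hand1 (2.16 and 0.13) and Bmp4 (1.05 and -0.08) lie farther right with the drugs, and Bmpr1a lies near 0.33 with them. The difference between the courses passed limma's test for Msx2 and Bmp4 and not for Hand1.

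Of 18 lateral plate and allantois genes, 13 rose and 2 fell, or 13 and 0 without the first treated day 4 array. The median was 1.85, against 0.08 in the untreated course, and the difference between the courses passed limma's test for 5 of the 18. The list was written with earlier results of these data known, so the gap between its medians is not separate support. Foxf1, a forkhead factor of lateral mesoderm, read 8.45, 8.00 and 7.86 on the day 4 arrays and 11.31, 9.88 and 11.08 on the day 6 arrays. The difference was 2.65 (SE 0.27, adjusted p = 1.75e-07), or 6.29-fold, with the second day 6 array lowest. Hand1, a bHLH factor of lateral and extraembryonic mesoderm, rose by 2.16 (SE 0.30), Prdm6, a smooth muscle regulator, by 2.91, Tbx20 by 3.31 and Isl1, a factor of heart precursors, by 1.53. Pitx1 (-0.48) and Vcam1 (-0.43) fell. Pitx1 did not pass without any single day 4 array or any single day 6 array (adjusted p up to 0.121), nor in 2 other settings, and Vcam1 did not pass without the first or the second day 4 array or the first or the third day 6 array (adjusted p up to 0.106).

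Of 18 presomitic and paraxial mesoderm genes, 9 rose and 2 fell, with a median of 0.28. The rises included Msgn1, a presomitic regulator (1.18), and the Notch ligand gene Dll3 (1.26), and Tcf15, which is also expressed in epiblast, fell (-1.17). Meox1 (-0.18), Pax3 (-0.23) and Uncx (-0.20), genes of formed somites, did not pass. Of 19 cardiac genes, 7 rose and 12 did not pass. They were the early factors Tbx20, Gata4 (2.36), Isl1 and Hand2 (0.82), with Actc1 (2.17), Myl7 (0.84) and Wnt11 (0.30). Hand2 did not pass without the first day 6 array (adjusted p = 0.0949), Wnt11 did not pass without the second day 4 array or the first day 6 array (adjusted p up to 0.0816) and Myl7 did not pass without the second or the third day 4 array or the first day 6 array (adjusted p up to 0.113), nor in 2 other settings. The heart factor Nkx2-5 (-0.19) and the sarcomere genes Myh6 (-0.28) and Tnnt2 (-0.14) did not pass.

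Among 25 endothelial and blood genes 8 rose and 6 fell, or 7 and 3 without the first treated day 4 array. The share that fell was not above the 25.1% over all genes. Those that rose were Kdr, Aplnr, its ligand gene Apln (1.03), Flt1 (1.14), Runx1 (1.38), Etv2 (0.94), Lmo2 (0.66) and Gata2 (0.39), the last of which did not pass without the first day 4 array or the first day 6 array (adjusted p up to 0.125). Etv2 and Runx1 encode regulators at the start of the vascular and blood lineages. The embryonic globin genes Hbb-bh1 (-0.31) and Hba-x (-0.43) and the blood regulator Tal1 (-0.21) did not pass. Pecam1, an adhesion gene expressed by stem cells as well as vessels, fell (-1.01), as did Cd34 (-1.03).

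Of 16 definitive endoderm genes, 9 rose and 2 fell. Sox17, a determinant of endoderm, read 6.89, 7.01 and 7.09 on the day 4 arrays and 8.44, 8.33 and 8.47 on the day 6 arrays, which do not overlap, and differed by 1.42 (SE 0.19, adjusted p = 5.51e-06). Gata6 rose from 7.73 ± 0.16 to 10.98 ± 0.12 (SD, n = 3), Cxcr4, a chemokine receptor of endoderm and mesoderm, by 2.17, Foxa2 by 0.71 and Tmprss2, a serine protease gene, by 1.64. The secreted signal gene Shh (-0.38) and the hormone gene Trh (-0.67) fell, but Shh did not pass without the second day 4 array or the first or the third day 6 array (adjusted p up to 0.112) and Trh did not pass without any single day 4 array or the first or the third day 6 array (adjusted p up to 0.161), nor in 2 other settings. Of 16 visceral endoderm genes 1 rose, Apoe (0.46), and 3 fell, neither share being above that over all genes (19.1% higher, 25.1% lower). Afp, the fetal serum protein gene, stood at 6.49 and 6.29 on the 2 days. Of 14 trophoblast genes, 6 rose and 8 did not pass. Besides Cdx2, Gata3, Hand1, Eomes and Peg10 (0.79), which mesoderm also expresses, Plac1 rose (1.39), while Elf5 (-0.18), a trophoblast stem cell factor, did not pass.

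**Figure D3:**
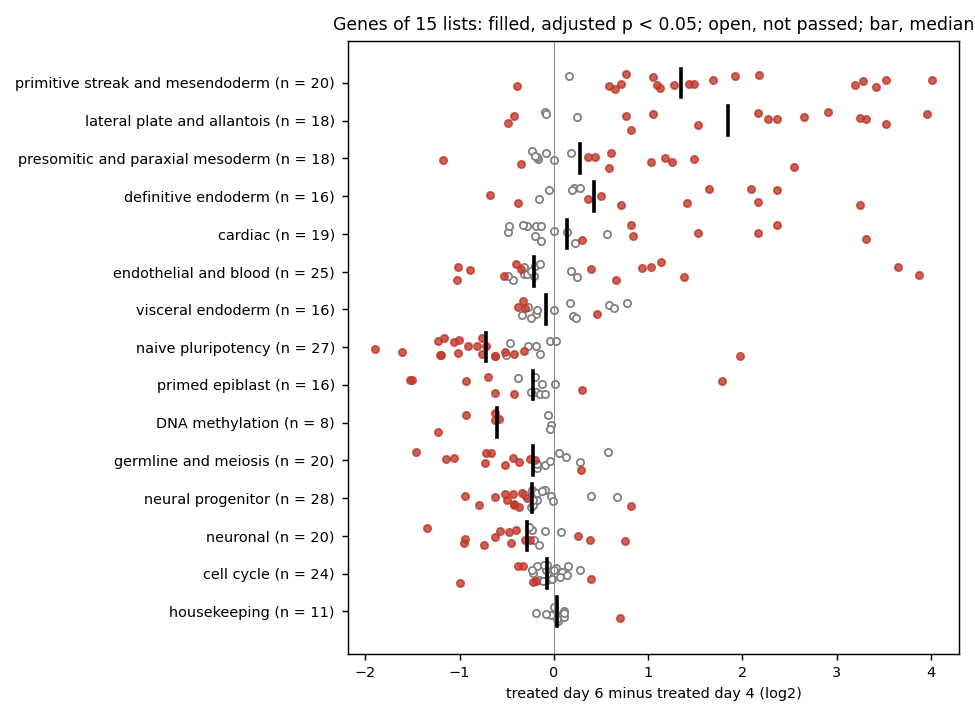
Treated day 6 minus treated day 4 difference on the log2 scale for the measured genes of 15 lists, 1 point per gene, filled where limma's adjusted p was under 0.05 and open otherwise, with the list's median as a black bar. Points are spread vertically only to separate them. The primitive streak (median 1.35) and lateral plate (1.85) lists lie to the right, the naive pluripotency list (-0.72) lies to the left, and 10 of the 11 housekeeping genes are open points.

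Of 15 mesenchymal genes, 13 rose and 2 did not pass, with a median of 0.78. Snai1, the transcription factor that represses Cdh1 in the streak, read 8.83, 8.74 and 9.07 on the day 4 arrays and 10.41, 10.48 and 10.19 on the day 6 arrays, a difference of 1.48 (SE 0.13, adjusted p = 3.39e-08). Cdh2, which encodes N-cadherin, rose by 1.78, Cdh11 by 3.17, Zeb2 by 1.89, Snai2 by 1.28 and Vim by 0.65. Of 18 epithelial genes, 6 rose and 2 fell, or 4 and 3 after quantile normalization, with a median of 0.07. In the untreated course 12 of them rose and 1 fell, with a median of 0.45. By limma's test 0 of the 18 differences between the courses passed. An unadjusted p under 0.05 was found for 10 of the 18, against 1617 of the 19938 genes. Of the 18 differences 1 lay above 0, and the list as a whole was not tested. Cdh1, which encodes E-cadherin, went from 12.10 ± 0.05 to 11.77 ± 0.15 (SD, n = 3), a difference of -0.33 (SE 0.11, adjusted p = 0.0212) that did not pass without the third day 4 array or the first or the third day 6 array (adjusted p up to 0.0852). Grhl2, an epithelial transcription factor, fell by more (-1.21), and the keratin genes Krt8 (1.87) and Krt18 (1.73) rose.

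Of 27 naive pluripotency genes, 19 fell and 1 rose, with a median of -0.72, and the 1 that rose was Tbx3 (1.98), which is also a BMP target and a gene of mesoderm. Nr0b1 read 12.02, 11.92 and 11.92 on the day 4 arrays and 9.80, 10.16 and 10.20 on the day 6 arrays, a fall to 10.06 on average. Zfp42, which encodes Rex1, differed by -1.23 (SE 0.22, adjusted p = 0.000156), Dppa2 by -1.61, Nr5a2 by -1.21, Esrrb by -0.77 and Klf4 by -0.32. Pou5f1, which encodes Oct4, read 12.70, 12.74 and 12.70 on the day 4 arrays and 12.20, 12.25 and 12.18 on the day 6 arrays. These groups did not overlap, but the difference of -0.50 (SE 0.24, adjusted p = 0.0912) did not pass with the spread of all 24 arrays, whereas it passed in a fit of the compared groups alone (adjusted p = 0.000613). Sox2 differed by -0.63 (SE 0.23, adjusted p = 0.0293), which did not pass without the second or the third day 4 array or the first or the third day 6 array (adjusted p up to 0.106), nor in 1 other setting. Nanog went from 12.63 ± 0.02 to 12.59 ± 0.21 (SD, n = 3), a difference of -0.04 with SE 0.20.

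Of 16 primed epiblast genes, 6 fell and 2 rose. Foxd3 (-1.53), Pou3f1 (-1.51) and Sall2 (-0.70) fell, while Fgf5, a marker of the postimplantation epiblast, read 10.62, 10.42 and 10.51 on the day 4 arrays and 9.89, 10.70 and 10.39 on the day 6 arrays, which overlap, and Otx2 (-0.20) did not pass. The DNA methylation genes fell in part: 5 of 8 were lower and 3 did not pass, with Dnmt3l at -1.23, Dnmt3a at -0.93, Dnmt3b at -0.63, Tet2 at -0.62 and Tet1 at -0.59. The maintenance enzyme Dnmt1 (-0.04) did not pass, nor did Dnmt3b without the first day 6 array (adjusted p = 0.0536). Of 20 germline and meiosis genes, 11 fell and 1, the receptor gene Kit, rose (0.28), which did not pass without the second or the third day 4 array or the second day 6 array (adjusted p up to 0.171), nor in 2 other settings. The largest of these falls were Tdrd12 (-1.46) and Rhox9 (-1.14), genes expressed in germ cells, and Hormad1 (-1.06), a meiosis gene.

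Of 28 neural progenitor genes, 11 fell and 1 rose, with a median of -0.23 against -0.07 over all genes. Sox1, the neural gene whose locus carries the reporter of the 46C line, read 8.60, 8.66 and 8.77 on the day 4 arrays and 8.35, 8.39 and 8.16 on the day 6 arrays, a difference of -0.37 (SE 0.09, adjusted p = 0.00152). Pax6 differed by -0.95 at a mean of 6.94 by day 6, and Nes, which encodes the intermediate filament nestin, was the 1 that rose (0.82). Of 20 neuronal genes, 11 fell and 3 rose, or 7 and 2 without the first treated day 4 array, with Tubb3 at -0.94 and Ina at -1.34. Of 11 Hox genes of groups 1 to 4, Hoxb1 (0.70) and Hoxb2 (0.82) rose, and of 22 of groups 5 to 13, 4 fell and 18 did not pass. Neither share was above that over all genes (19.1% higher, 25.1% lower).

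Of 26 genes of calcineurin, NFAT and the drug-binding proteins, 11 rose and 3 fell. Of the calcineurin genes, the catalytic subunits Ppp3ca (0.55), Ppp3cb (0.39) and Ppp3cc (0.78) rose. Rcan1, a calcineurin inhibitor whose gene is itself induced through NFAT, read 9.91, 9.49 and 9.64 on the day 4 arrays and 10.02, 9.81 and 9.89 on the day 6 arrays, which overlap, and differed by 0.23 (SE 0.10, adjusted p = 0.0726). Of 5 NFAT genes, Nfatc1 (0.79), Nfatc4 (0.62) and Nfat5 (0.55) rose. Fkbp1a (0.00), the main FK506-binding protein gene, and Ppia (-0.03), the main cyclosporin-binding one, did not pass, while the cyclophilin gene Ppic rose by 1.41 (SE 0.18, adjusted p = 4.33e-06). Usp18, which removes the ubiquitin-like protein ISG15, rose by 2.98 (SE 0.28, adjusted p = 5.87e-08). Of the 16 interferon-stimulated genes listed 3 rose and 3 fell, neither share being above that over all genes (19.1% higher, 25.1% lower). The other rises were Ifitm1 (0.30) and Ifitm2 (0.22), the latter not passing without the first day 4 array or the second or the third day 6 array (adjusted p up to 0.183), nor in 4 other settings.

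For the lists that follow, the shares over all genes were 19.1% higher and 25.1% lower. Of 24 cell cycle genes, 1 rose and 5 fell, so falls were no more frequent than over all genes. Those that fell were Ccne1, which encodes the cyclin E1 abundant in stem cells (-0.99), and the replication genes Mcm2 (-0.33), Mcm3 (-0.38), Mcm4 (-0.19) and Mcm5 (-0.23). Mcm4 did not pass without the first day 4 array or the second day 6 array (adjusted p up to 0.0823), nor in 1 other setting, and Mcm5 did not pass without the first or the third day 4 array or the third day 6 array (adjusted p up to 0.104). Of 20 unfolded protein response genes, 1 rose and 4 fell, or 1 and 9 when array medians were set equal. Of 11 housekeeping genes, 1 rose, B2m (0.70), which encodes the light chain of MHC class I. The imprinted growth genes included 9 of 14 that rose, and the other 5 did not pass; the rises were led by Igf2, which encodes a fetal growth factor. Its signals were 9.24, 8.95 and 9.17 on the day 4 arrays and 12.35, 11.10 and 12.11 on the day 6 arrays, a difference of 2.73 (SE 0.22, adjusted p = 8.59e-09).

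The precursor probe sets of the microRNA cluster that holds Mir302a and Mir367 rose, unlike most pluripotency genes. MicroRNAs pair with messenger RNAs mainly through their seed, bases 2 to 8, and those of this cluster are abundant in pluripotent and early postimplantation cells. In the RefSeq tables (GRCm38.p6) the 5 hairpins lie within 580 bases, chr3:127545228-127545807 on the + strand. The mature 3′ strands listed there are shown because they name what the precursors give rise to, 5′ to 3′ with the seed in capitals.
miR-302b-3p: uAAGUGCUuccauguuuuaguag
miR-302c-3p: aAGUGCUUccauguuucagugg
miR-302d-3p: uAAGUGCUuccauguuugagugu
miR-367-3p: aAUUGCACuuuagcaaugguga
The seed of miR-302b-3p and miR-302d-3p is the same, AAGUGCU. In miR-302c-3p the same letters begin at base 1 instead of base 2, and miR-367-3p has a seed of its own, AUUGCAC.

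Mir302a read 7.61, 8.45 and 7.00 on the day 4 arrays and 9.75, 10.52 and 10.56 on the day 6 arrays, a difference of 2.59 (SE 0.50, adjusted p = 0.000338). Mir302b rose by 2.36, Mir302c by 2.51, Mir302d by 2.27 and Mir367, whose seed differs, by 2.71 (SE 0.54, adjusted p = 0.000424). In all 5 the days did not overlap, and the third day 4 array was the lowest of its group. In untreated embryoid bodies the difference was 2.59 for Mir302a and 3.50 for Mir367. Larp7, whose intron holds the cluster, rose by 0.25, a call lost in 9 of 14 alternative settings (adjusted p up to 0.167). The arrays read precursor or longer RNA of the cluster here, not mature microRNA, and the cluster was chosen after its values were seen. Over all microRNA genes tested, 57 were higher and 47 lower. Neither share was above that over all genes, which was 19.1% higher and 25.1% lower.

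Most of the day 4 to day 6 change was shared with untreated embryoid bodies. The untreated course had 4215 genes higher (21.1%) and 4164 lower (20.9%), and its arrays are separate from the treated ones. Of the genes higher under the drugs 81.1% were also higher without them, and of those higher without the drugs 73.3% were higher with them. For lower genes the shares were 60.8% and 73.1%. Over the 19938 genes the 2 sets of differences had a Pearson r of 0.87, as a description across genes that share arrays and are not independent. Only 2 genes of those tested were called higher with the drugs and lower without, B3gnt8 and Dmkn, and 5 the other way, 1700048O20Rik, Dhrs3, Gzme, Plcd1 and Rassf4, named after their values were seen. By their treated calls, 1700048O20Rik and Dhrs3 passed in each alternative setting and the other 5 did not, with a largest adjusted p of 0.222 for Plcd1, 0.181 for Dmkn, 0.12 for B3gnt8, 0.0753 for Rassf4 and 0.0596 for Gzme. B3gnt8, Plcd1 and Dmkn failed without the first day 4 or the first day 6 array among others, Rassf4 without the first day 4 or the third day 6 array and Gzme without the second day 4 or the third day 6 array. Dhrs3, a retinoid-reducing enzyme gene, had the widest gap of the 7 (-0.49 treated, 0.48 untreated), and of the 7 the difference between courses passed for 1700048O20Rik and not for the other 6.

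The test of the difference between the 2 courses called 19 genes. The treated change was higher for 15 (0.0752% of genes tested) and lower for 4 (0.0201%), while 1617 genes had an unadjusted p under 0.05. With the replicate number as a block shared by the treated and untreated arrays of day 6, added after seeing the data, the counts were 56 and 10, and all 19 genes were among them. Foxf1 had the largest gap. Its untreated signals were 7.96, 8.16 and 8.02 at day 4 and 8.09, 7.77 and 8.33 at day 6, a difference of 0.02 (SE 0.27, adjusted p = 0.959), which overlap. With the drugs it rose 6.29-fold, and the difference between the courses was 2.63 (SE 0.38, adjusted p = 0.0058). Gjb2, which encodes the gap junction protein connexin 26, had the smallest p. It read 6.86, 6.71 and 6.66 on the day 4 arrays and 8.45, 7.84 and 8.24 on the day 6 arrays under the drugs and 6.92, 6.93 and 7.00 on the untreated day 6 arrays, a difference of 1.26 (SE 0.15, adjusted p = 0.000776). Nin, which encodes the centrosome protein ninein, followed with 0.79 (SE 0.12, adjusted p = 0.0058). These 3 passed in every alternative setting in which they were tested, each with a largest adjusted p between 0.0308 and 0.0413.

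The other 12 higher genes did not pass in every alternative: Bmp4 and Isl1 passed in 10 of 22 (adjusted p up to 0.197 and 0.139), and Asb4 in 20 of 22. Among them were the BMP ligand gene Bmp4 (1.13 (SE 0.22, adjusted p = 0.0417)) and 2 BMP targets, Msx2 (2.03 (SE 0.38, adjusted p = 0.0374)) and Tbx3 (1.56 (SE 0.30, adjusted p = 0.0417)). Genes of lateral mesoderm and vessels were Kdr (2.12), Isl1 (1.56), Asb4 (2.17) and Prdm6 (2.14). Capn6 (2.36), Vstm2b (1.78), Amer3 (1.45), an APC-binding protein gene, the heparan sulfate enzyme gene Hs3st3b1 (1.07) and Tmem185a (0.92) completed them. Bmp4 read 10.35, 10.24 and 10.55 on the untreated day 4 arrays and 10.33, 10.02 and 10.53 on those of day 6, against its treated rise of 1.05. For all 15 genes the 3 treated day 6 arrays lay above the 3 untreated day 6 arrays. The choice of genes favours this, since the test that called them used the same arrays, so it adds no separate support. In the untreated course 8 of the 15 were also called higher. In 15 of 15 the second treated day 6 array was the lowest of its group, and in 14 of 15 so was the second untreated day 6 array.

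The 4 lower genes had small differences. Pgm1, which encodes phosphoglucomutase, rose in both courses, by 0.53 with the drugs and 1.01 without (-0.48 (SE 0.08, adjusted p = 0.024)). Castor2 stood at -0.19 and 0.57, Fcho1, an endocytosis gene, at -0.46 and 0.12, and 1700048O20Rik at -0.33 and 0.23. With the mean of its probe sets Castor2 did not pass, and its treated difference was 0.0074. The calls depended on the arrays used. Without the second treated day 6 array all 19 genes passed, without the first untreated day 6 array 17, without the third untreated day 6 array 16 and without the first treated day 4 array 9, and without any one of the other 8 arrays between 4 and 7 passed. The sign stayed the same for all 19 in each of these 12 fits.

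**Figure D4:**
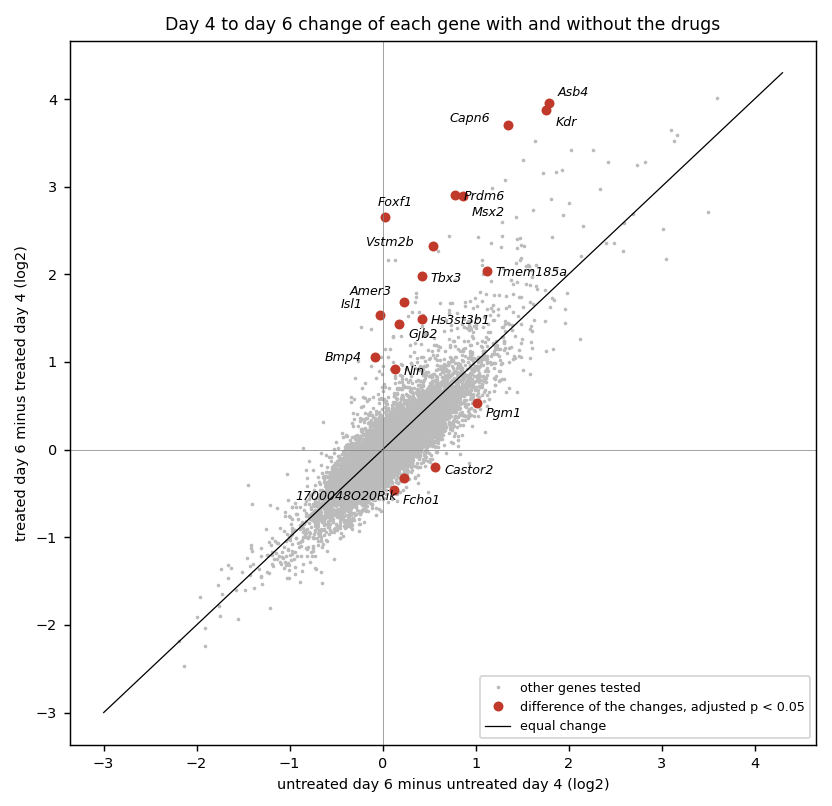
Treated day 6 minus day 4 difference (vertical) against the untreated one (horizontal) on the log2 scale for the 19938 genes, with the line of equal change. Red points are the 19 genes whose 2 differences differed at limma's adjusted p under 0.05. Most genes follow the line (r = 0.87), and 15 red points lie above it, Foxf1 at 2.65 against 0.02.

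The later days are given as means of 3 arrays, with no test. Foxf1 stood at 11.65 in treated and 10.88 in untreated embryoid bodies at day 8, and Bmp4 at 12.11 and 11.81. Gjb2 went back from 8.18 at day 6 to 7.18 at day 8 under the drugs. Of the 330 genes that rose at least 2-fold, 189 had a higher mean at day 8 than at day 6 and 141 a lower one, among them Mixl1 (10.33). Of the 125 that fell at least 2-fold, 94 were lower still at day 8.

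**Figure D5:**
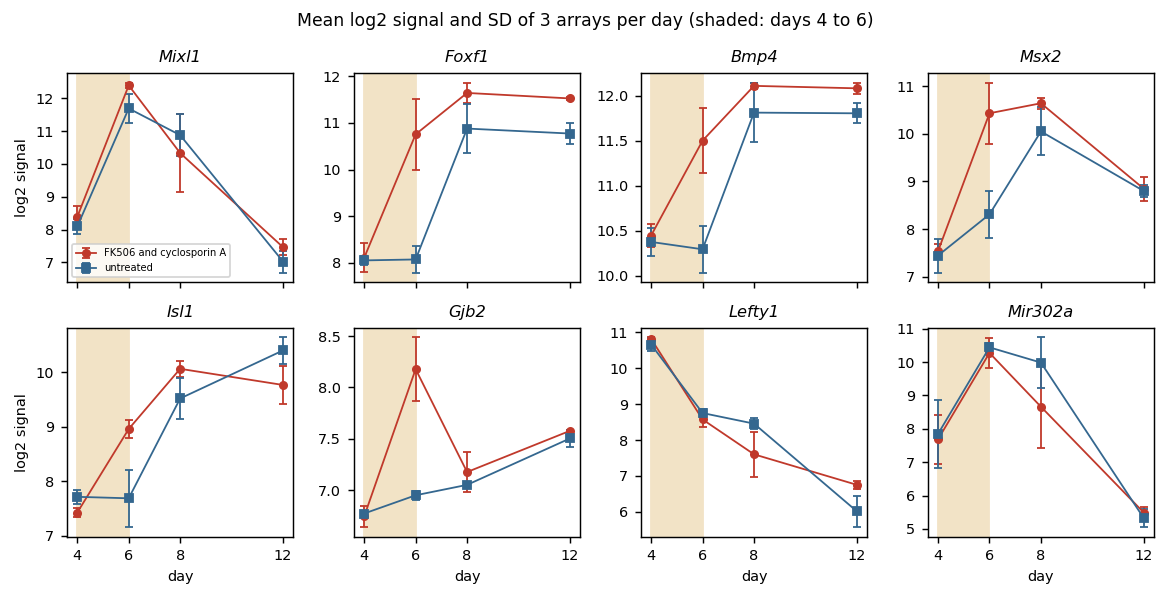
Mean log2 signal of 8 genes at days 4, 6, 8 and 12 in treated (red circles) and untreated (blue squares) embryoid bodies, with the SD of 3 arrays as whiskers. The interval from day 4 to day 6 is shaded, and each panel has its own axis. The means of Foxf1 and Bmp4 were higher at day 6 than at day 4 with the drugs and, without them, higher at day 8 than at day 6, and that of Gjb2 under the drugs was highest at day 6.

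The promoters of the 15 genes that rose more under the drugs were searched for 3 short motifs in the 250 bases before the start, taken from RefSeq (GRCm38.p6), where 12 of the 15 genes had a window. The motifs were GGCGCC, which reads the same on both strands and is bound by BMP Smads, ATCAAAG on either strand, bound by Tcf and Lef factors, and AGATAA on either strand, bound by Gata factors. GGCGCC was found in 5 of the 12 (41.7%), against 21.6% of the 241 genes with a window among those that rose at least 2-fold and 10.8% of all 27025 genes in the table. The 5 were Asb4, Vstm2b, Nin, Isl1 and Gjb2, with Asb4 and Nin holding it in 1 of 2 and 1 of 3 windows. Of the BMP ligand and target genes among the 15, Bmp4 and Msx2 did not hold it, and Tbx3 had no window. Foxf1 and Prdm6 had no window either. Whether BMP Smads act on these genes was not tested. The motif is made of G and C only, for whose share in the windows no correction was made. Neither of the other motifs was found in the 12, while 3.72% and 11.4% of all genes hold them. The windows of Isl1 and Gjb2, with GGCGCC in capitals, and of Bmp4, in which it was not found, are shown 5′ to 3′ because these genes differed between the courses.
Isl1, chr13:116309689-116309938, - strand: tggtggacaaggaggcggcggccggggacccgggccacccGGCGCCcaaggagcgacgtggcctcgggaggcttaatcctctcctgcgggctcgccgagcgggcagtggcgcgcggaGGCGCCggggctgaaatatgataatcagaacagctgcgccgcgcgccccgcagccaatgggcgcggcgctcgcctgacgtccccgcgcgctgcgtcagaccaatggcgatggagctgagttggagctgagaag
Gjb2, chr14:57104703-57104952, - strand: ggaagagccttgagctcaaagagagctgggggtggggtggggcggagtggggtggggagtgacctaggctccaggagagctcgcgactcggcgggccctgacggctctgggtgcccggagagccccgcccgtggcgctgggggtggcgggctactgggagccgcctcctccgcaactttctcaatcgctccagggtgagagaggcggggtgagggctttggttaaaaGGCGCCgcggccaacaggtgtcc
Bmp4, chr14:46390670-46390919, - strand: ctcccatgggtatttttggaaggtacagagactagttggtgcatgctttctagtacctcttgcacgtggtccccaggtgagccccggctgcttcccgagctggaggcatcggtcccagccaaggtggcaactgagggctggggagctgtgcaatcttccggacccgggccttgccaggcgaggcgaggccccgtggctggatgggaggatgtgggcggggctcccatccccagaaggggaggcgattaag
Isl1 holds GGCGCC 2 times, beginning 210 and 133 bases before the start, and Gjb2 holds it 1 time, beginning 23 bases before it. A match describes these letters and is not a bound site.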

How the data were processed

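RNA was measured on Affymetrix Mouse Gene ST arrays. The authors deposited log2 values, made with RMA in Affymetrix Expression Console per the submitters' processing notes; neither a version nor a build is given in the sources used here. Of 35556 probe sets, 21789 had 1 gene symbol in the platform annotation, 1621 several and 12146 none. For 999 genes with several probe sets the brightest by mean was taken, which left 19938 genes.

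Group means were fitted with limma 3.58.1 (R 4.3.3) on all 24 arrays, with 16 residual degrees of freedom, moderated with eBayes, and differences were called at 0.05 after Benjamini-Hochberg adjustment over all genes. The labels call the replicates biological without naming what separates them, so p-values measure the spread between these samples, which may be technical. Lists are described by counts and medians. Named were the 15 largest rises and falls with non-overlapping arrays (1 gene model passed over), the genes that differed between courses, fixed genes, and list members in order of role. The members and lists were chosen with earlier results of these data known. Same-numbered treated arrays of days 4 and 6 correlated at 0.15, 0.06 and 0.04 in their deviations, so the numbers were not taken as pairs across days (minimum 0.1). Same-numbered treated and untreated arrays correlated at 0.30, 0.14 and 0.21 at day 6, which met that minimum, and at -0.01, 0.19 and -0.05 at day 4, which did not. Plots were drawn with matplotlib 3.10.9 in Python 3.11.15, from tables made with numpy 2.4.6 and pandas 2.3.3.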

Additional observations from a re-analysis of the deposited data

Results flagged for a closer look

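The day 4 to day 6 change differed between treated and untreated embryoid bodies for 19 genes by limma's test of the difference itself. On the log2 scale, treated minus untreated, it was 2.63 for Foxf1, 2.36 for Capn6, 2.17 for Asb4, 2.14 for Prdm6, 2.12 for Kdr and 2.03 for Msx2. It was 1.78 for Vstm2b, 1.56 for Tbx3, 1.56 for Isl1, 1.45 for Amer3, 1.26 for Gjb2 and 1.13 for Bmp4. Smaller differences were 1.07 for Hs3st3b1, 0.92 for Tmem185a and 0.79 for Nin. Below 0 were -0.76 for Castor2, -0.58 for Fcho1, -0.55 for 1700048O20Rik and -0.48 for Pgm1. Groups of 3 arrays are too small for an outlier test.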

How the results depend on the processing

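The alternatives were quantile normalization, equal array medians, a filter on genes under the 40th percentile, averaged probe sets, array weights, a trended and robust prior, the replicate block, a fit on only the arrays compared, and leaving out each array. For treated day 6 against day 4 the counts of 3811 higher and 5001 lower genes ranged over 3101 to 3996 and 3463 to 4668 when 1 array was left out. The filter gave 3567 higher and 2275 lower genes, having removed dim ones, and a 2-fold threshold gave 330 higher and 125 lower. The other settings stayed within 1.5 times. For the difference between courses, 15 higher and 4 lower, the counts were 8 and 2 with the trended prior, 216 and 148 with array weights, 5 and 0 in the fit on only the arrays compared, and 0 lower at 2-fold. Leaving out 1 array gave 4 to 59 higher and 0 to 9 lower. The replicate block over days, which pairs arrays by a number the labels do not tie to a shared culture, gave 3764 and 5045 genes for the treated course and 28 and 5 for the difference, all 19 calls among them; not every treated array correlated best with its own number. Added after seeing the data, a replicate block shared by the treated and untreated arrays of day 6 gave 56 and 10 for the difference and one within each of days 4 and 6 gave 44 and 6, all 19 calls among both. Of 220 genes named for the treated course 194 were called, and 169 of these kept the call in each alternative that tested them; 11 of 26 others passed in some alternative, among them Rcan1 and Pou5f1. Signs turned for 6 genes that did not pass. Fkbp1a was -0.0092 after quantile normalization, -0.039 with equal medians, -0.0469 with array weights and between -0.0464 and 0.0339 without 1 array. Wnt8a was -0.115 after quantile normalization, -0.0385 with equal medians and between -0.2041 and 0.1860 without 1 array. Castor2 was 0.0074 with the mean of its probe sets. Without 1 array, Chrd lay between -0.0789 and 0.2126, Fgf5 between -0.377 and 0.0265 and Nanog between -0.1237 and 0.0819. With the filter 4 list medians changed sign by more than the spread between arrays, the Wnt ligands to 0.1739, the visceral endoderm to 0.1688, Hox groups 1 to 4 to 0.3799 and the surface ectoderm to 0.2005. Why these values moved was not tested. Groups of 3 arrays, the 1 cell line and the absence of single-drug and vehicle cultures limit what the comparison can show, and without detection calls a change in a dim gene may lie below background.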

Other observations

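Further gene families, chosen by their names after the values were seen, are given for the day 4 to day 6 change under the drugs as counts without a test of the family. Over all genes 19.1% were higher and 25.1% lower. Of 20 semaphorin genes, guidance ligands, 9 rose and 5 fell, led by Sema6d (2.21), Sema3a (1.36) and Sema3c (1.26). Of 9 plexin genes, their receptors, 4 rose and 1 fell, with Plxna2 at 2.11 and Plxna4 at 1.57, the latter at 0.31 in untreated embryoid bodies, a difference between courses that did not pass limma's test (adjusted p = 0.275). Of 9 netrin and netrin receptor genes 1 rose and 2 fell. The 1 was Unc5c, which read 10.05, 7.98 and 10.01 on the treated day 6 arrays and differed by 2.17 under the drugs and 0.06 without them, and the difference between courses did not pass limma's test (adjusted p = 0.118).

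Of 6 glypican genes, heparan sulfate proteins of the cell surface, 5 rose and 1 fell, with Gpc6 at 1.88 and Gpc3 at 1.40. Of the 3 TGF-beta ligand genes, Tgfb2 (1.94) and Tgfb1 (1.44) rose and Tgfb3 (0.01) did not pass. Of 12 oocyte genes, 7 fell and 5 did not pass, with Zp3 (-1.30), which encodes a protein of the egg coat, and Ooep (-1.01) as the largest. Of the 6 GATA factor genes, Gata2, Gata3, Gata4 and Gata6 rose, while Gata1 (-0.28) and Gata5 (-0.22) did not pass. From the gene lists, of 17 Notch pathway genes, 9 rose and 4 fell, the targets Hey1 (1.47), Hey2 (1.48) and Hes1 (1.41) rising most, and of 17 ephrin and Eph genes 11 rose and 1, Epha2, fell (-1.03).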
